A study of Mus musculus with 10 samples.

Results

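The genes described here are the receptors of the interleukin-6 (IL-6) family and the STAT3 signalling chain below them: Il6ra, Il6st, Lifr, Osmr, Jak1, Jak2, Stat3, Socs1, Socs3 and Pias3. The 10 genes were taken by name, through the RefSeq accession of each array probe, from 21613 named genes on the array, and all 10 were found, with 13 probes between them. Liver RNA was measured on Agilent 1-colour mouse arrays, 1 array per mouse. The first group is 6 male TG221 mice given metformin and CCl4, and the second is 4 male TG221 mice given CCl4. TG221 mice carry a transgene for miR-221, a microRNA raised in many liver cancers, on a B6D2F2 background; the promoter of the transgene is not given in the sources used here. All 10 mice had carbon tetrachloride (CCl4), a liver toxin, at 20% by volume in olive oil by gavage 3 times a week for 14 weeks, beginning at an age of 4 to 6 weeks. Metformin, a biguanide used in type 2 diabetes, was given at 300 mg/kg each day once CCl4 had been given for 3 weeks, and livers were collected at 24 weeks. Every group carries both the transgene and the toxin, so no value here shows the liver without them. The labels name the tissue liver and the cell type hepatocellular carcinoma. All 12 hepatocyte markers examined, albumin (Alb) among them, were well above background.

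IL-6 and its relatives signal through a shared receptor chain, gp130, encoded by Il6st. Il6ra encodes the chain that binds IL-6 itself, while the chains encoded by Lifr and Osmr pair with gp130 to bind leukaemia inhibitory factor and oncostatin M. The kinases JAK1 and JAK2 then phosphorylate the transcription factor STAT3, which in hepatocytes switches on acute phase genes, and the inhibitors SOCS3, SOCS1 and PIAS3 restrain the chain. These arrays measured RNA, not phosphorylation.

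SOCS3 and CISH are feedback inhibitors whose genes are known STAT targets, and their promoter windows are shown because Socs3 was the only one of the 10 genes whose window held the STAT-type motif, and Cish was the pathway gene with the highest fold change (described below). Promoter windows from RefSeq (build GRCm38.p6), of 300 bases that end 50 bases into the transcript, were matched for all 10 genes and gave 12 windows. They were searched for TTCNNNGAA, which reads the same on both strands; capitals mark the matches.
Socs3 promoter, chr11:117969317-117969616, minus strand: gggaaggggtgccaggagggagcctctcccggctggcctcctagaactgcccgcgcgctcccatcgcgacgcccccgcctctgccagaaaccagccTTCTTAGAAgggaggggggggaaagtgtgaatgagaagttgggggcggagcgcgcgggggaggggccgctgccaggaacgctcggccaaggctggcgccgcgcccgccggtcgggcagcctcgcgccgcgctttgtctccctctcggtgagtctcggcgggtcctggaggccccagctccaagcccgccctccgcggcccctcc
Cish promoter, chr9:107296409-107296708, plus strand: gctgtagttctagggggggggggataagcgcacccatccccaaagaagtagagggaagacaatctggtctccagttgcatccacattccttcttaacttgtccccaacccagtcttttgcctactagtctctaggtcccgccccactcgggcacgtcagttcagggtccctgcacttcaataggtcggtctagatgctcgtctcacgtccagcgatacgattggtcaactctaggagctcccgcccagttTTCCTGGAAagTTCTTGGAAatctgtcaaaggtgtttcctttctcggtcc
The Socs3 match began 154 bases upstream of the start, and the matches in Cish began at bases 1 and 12 of the transcript. The same motif stood in 8.3% of all 32851 promoter windows of 300 bases. The narrower motif TTCCNGGAA stood in 1.15% of them, among them Cish, where it is the same stretch as the first TTCNNNGAA match. A match describes the letters only; binding was not measured.

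Values are log2 processed intensities minus the array's 75th percentile, so 0 is the 75th percentile of an array. A gene was called where the limma adjusted p (Benjamini-Hochberg over 48630 features, all non-control probes, 1 probe per gene) was below 0.05; fold changes are metformin plus CCl4 over CCl4. The 75th percentile itself ran from 237 to 363 intensity units over the arrays, and between 51.2% and 54.9% of probes were well above background on an array. The 6 metformin arrays shared 1 slide and scan and the 4 CCl4 arrays another, and slide and metformin cannot be told apart. Of all named genes 26.4% were called, 15.5% higher and 10.9% lower, and of the 14539 well above background, as 9 of the 10 pathway genes are on every array, 37.3% were called, 22% higher and 15.3% lower. Beside this, 0 of the 10 pathway genes were called higher in limma (2 at an unadjusted p below 0.05, Il6ra and Socs1) and 2 were called lower, Il6st and Lifr. The groups did not overlap in 1 of the 10, Il6st, against 24.9% of named genes (15.1% higher and 9.82% lower). The median log2 fold change was 0.050 over the 10 genes, Pias3 at background included, and 0.030 over all features. In bulk liver, fewer cells of a type and less RNA per cell cannot be told apart.

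**Figure D1:**
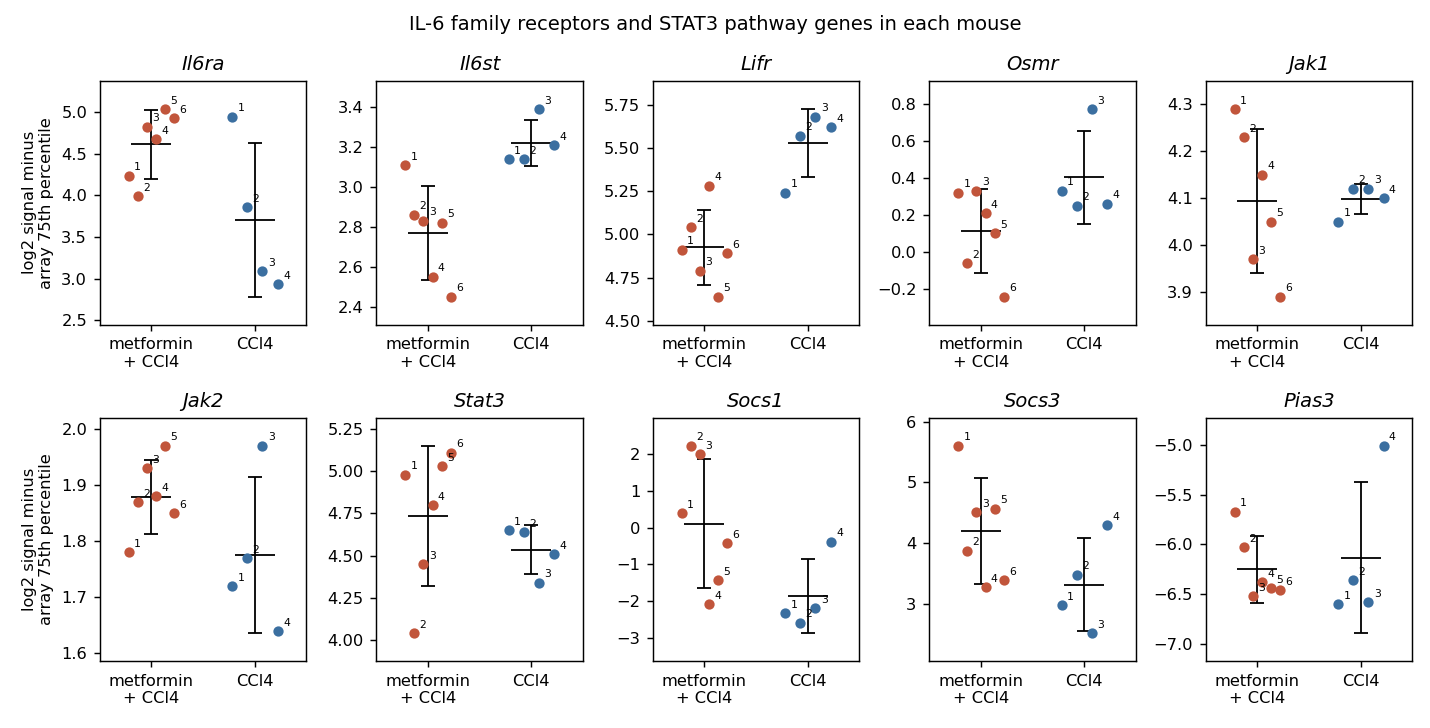
Log2 signal minus the array's 75th percentile (y axis) of the 10 genes in each mouse, with metformin plus CCl4 (red, n = 6) left of CCl4 (blue, n = 4); digits are mouse numbers, and bars are the mean and SD. Il6st separates the groups, from 2.45 to 3.11 with metformin against 3.14 to 3.39 with CCl4 alone, while Socs1 and Socs3 spread over several log2 units within a group.

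Among the receptor genes, Il6st RNA was lower with metformin, Lifr RNA was lower by its brightest probe but not by its other 2, and Il6ra and Osmr did not pass the test. Il6st was at 3.11, 2.86, 2.83, 2.55, 2.82 and 2.45 in metformin mice 1 to 6, against 3.14, 3.14, 3.39 and 3.21 in CCl4 mice 1 to 4. Every metformin mouse lay below every CCl4 mouse, but metformin mouse 1 missed the lowest CCl4 mice by only a few hundredths of a log2 unit. Il6st was lower by a log2 fold change of -0.45 ± 0.14 (SE, n = 6 and 4; 95% interval -0.76 to -0.14; adjusted p = 0.0436 in limma). The direction held in all 21 refits, but the call is marginal. It held without metformin mouse 1 (-0.52, adjusted p = 0.0208 in limma). It was lost when any other mouse was left out (log2 fold changes of -0.48 to -0.39, adjusted p up to 0.128 in limma). It was also lost after median scaling (adjusted p = 0.0763 in limma) and with the 2 metformin and 4 CCl4 arrays of slide row 1 alone (-0.24, adjusted p = 0.259 in limma).

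Lifr was at 4.91, 5.04, 4.79, 5.28, 4.64 and 4.89 in metformin mice 1 to 6, against 5.24, 5.57, 5.68 and 5.62 in CCl4 mice 1 to 4. The groups overlapped only through metformin mouse 4, which lay just above CCl4 mouse 1. The log2 fold change was -0.60 ± 0.14 (SE; 1.52-fold lower, 95% interval -0.92 to -0.28; adjusted p = 0.0141 in limma), and the call held without any 1 mouse. Adding a term for slide row ended the call (-0.55, adjusted p = 0.0690 in limma), as did using slide row 1 alone (adjusted p = 0.0975 in limma). Lifr was the only one of the 10 genes in the authors' deposited table of filtered probes, where the same probe differed by -0.72. The filter used a fold change of 1.5 on these same arrays, so this is no separate support.

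Lifr has 3 probes, and their values differ in direction. The called probe, the brightest, is assigned to the RefSeq transcript NM_001113386. A second probe, assigned to NM_013584, was at 3.66, 4.54, 4.00, 3.62, 3.59 and 3.28 in metformin mice 1 to 6, against 2.79, 2.49, 2.54 and 3.84 in CCl4 mice 1 to 4. Here 3 CCl4 mice lay below all metformin mice and CCl4 mouse 4 among them. The difference of 0.87 ± 0.30 (log2, SE; adjusted p = 0.0697 in limma over all probes) did not pass. The remaining probe, also assigned to NM_013584 and dimmer, differed by -0.30 ± 0.21 (SE; adjusted p = 0.404 in limma). Averaged over the 3 probes the fold change of Lifr came to -0.012 (adjusted p = 0.979 in limma). The lower call of Lifr is that of 1 probe, and why the probes differ was not tested.

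Il6ra varied more between CCl4 mice than between metformin mice. It was at 4.24, 3.99, 4.83, 4.68, 5.04 and 4.93 in metformin mice 1 to 6, against 4.95, 3.86, 3.09 and 2.93 in CCl4 mice 1 to 4. Within the CCl4 group mouse 1 lay in the metformin range and mice 2, 3 and 4 were below all metformin mice. The difference of 0.91 ± 0.38 (log2, SE; 95% interval 0.069 to 1.75; adjusted p = 0.131 in limma) did not pass. Without CCl4 mouse 1 it was 1.33 and passed (adjusted p = 0.0124 in limma), and it also passed after normexp background correction (0.88, adjusted p = 0.0391 in limma). On slide row 1 alone it was 0.41 (adjusted p = 0.616 in limma). Osmr was at 0.32, -0.06, 0.33, 0.21, 0.10 and -0.24 in metformin mice 1 to 6, against 0.33, 0.25, 0.77 and 0.26 in CCl4 mice 1 to 4. These ranges overlap and CCl4 mouse 3 stands above the rest. Osmr did not pass (log2 fold change -0.29 ± 0.16, SE; 95% interval -0.64 to 0.055; adjusted p = 0.251 in limma), with -0.17 without CCl4 mouse 3.

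**Figure D2:**
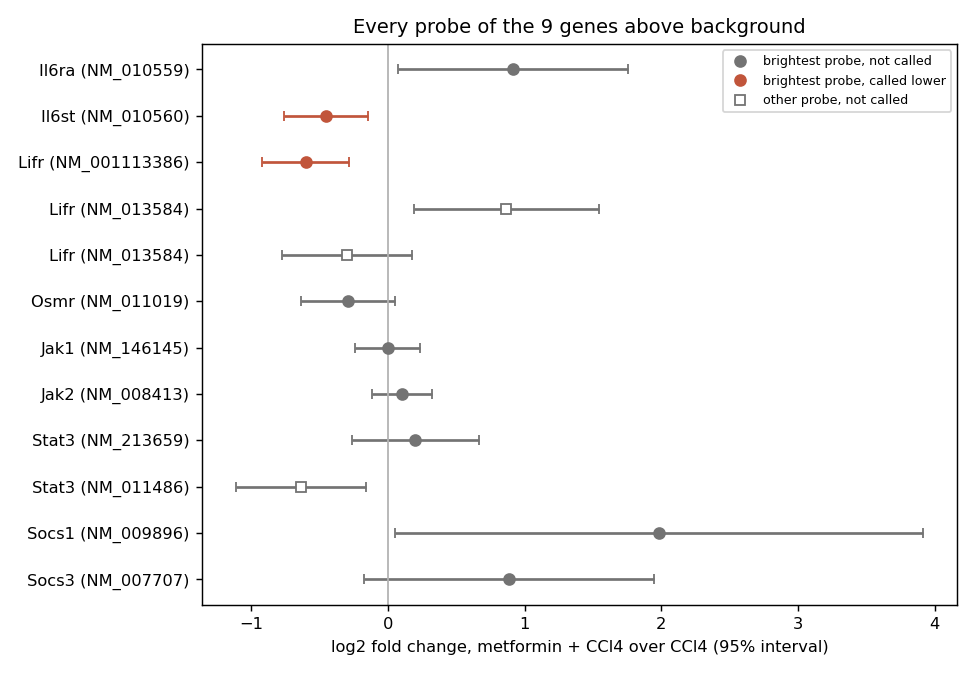
Log2 fold change, metformin plus CCl4 over CCl4 (x axis, 95% interval from limma over all probes), for each of the 12 probes of the 9 genes above background, named by gene and RefSeq transcript (y axis). Filled circles are the brightest probe of a gene (red where called lower) and open squares its other probes; the 3 Lifr probes lie on both sides of 0, at -0.60, 0.87 and -0.30, and the 2 Stat3 probes at 0.20 and -0.63.

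In metformin mice the kinase genes had the smallest SD between mice of the 10 genes, and neither passed the test. Jak1 ran from 3.89 to 4.29 with a median of 4.10 in metformin mice, against 4.05, 4.12, 4.12 and 4.10 in CCl4 mice 1 to 4. Its log2 fold change was -0.0032 ± 0.11 (SE; adjusted p = 0.991 in limma), and its 95% interval, -0.24 to 0.23, is narrow beside those of the other genes but Jak2. Jak2 ran from 1.78 to 1.97 in metformin mice, against 1.72, 1.77, 1.97 and 1.64 in CCl4 mice 1 to 4, with a log2 fold change of 0.10 ± 0.099 (SE; 95% interval -0.12 to 0.32; adjusted p = 0.580 in limma). The SD between mice of Jak2 in the metformin group, 0.065, was larger than that of only 2.69% of the 14539 named genes well above background. The SD of Jak1 in the CCl4 group, 0.032, was larger than that of 0.956% of them.

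Stat3 itself did not pass the test, and it varied more between metformin mice (SD 0.416) than between CCl4 mice (SD 0.146). It was at 4.98, 4.04, 4.45, 4.80, 5.03 and 5.11 in metformin mice 1 to 6, against 4.65, 4.64, 4.34 and 4.51 in CCl4 mice 1 to 4. Metformin mouse 2 was below and 4 of the 6 metformin mice were above all CCl4 mice. The log2 fold change was 0.20 ± 0.21 (SE; 95% interval -0.27 to 0.66; adjusted p = 0.627 in limma). It was 0.34 without metformin mouse 2 and 0.12 without metformin mouse 6. A second, dimmer Stat3 probe, assigned to the transcript NM_011486, was at -0.54, -1.66, -1.43, -1.03, -0.97 and -0.68 in metformin mice 1 to 6, against -0.32, -0.40, -0.63 and -0.31 in CCl4 mice 1 to 4. Only metformin mouse 1 reached the CCl4 range. This difference, -0.63 ± 0.21 (log2, SE; adjusted p = 0.0610 in limma over all probes), did not pass either. By both probes metformin mice 2 and 3 were the lowest of their group.

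Socs1 had the largest difference of the 10 genes, Socs1 and Socs3 had the largest SD between metformin mice, and no inhibitor passed. Socs1, which encodes an inhibitor of JAK kinases, was at 0.40, 2.23, 2.0, -2.08, -1.44 and -0.43 in metformin mice 1 to 6, against -2.33, -2.59, -2.19 and -0.38 in CCl4 mice 1 to 4. Metformin mice 1 to 3 were above all CCl4 mice, and mice 4 to 6 lay within their range. Socs1 differed by 1.98 ± 0.87 (log2, SE; 95% interval 0.047 to 3.92; adjusted p = 0.154 in limma), from 1.56 to 2.48 over the fits that left out 1 mouse. Its SD of 1.77 in the metformin and 1.01 in the CCl4 group exceeded that of 99.9% and 98.8% of named genes well above background. Socs3, which encodes the inhibitor that binds gp130, was at 5.6, 3.88, 4.51, 3.28, 4.57 and 3.39 in metformin mice 1 to 6, against 2.98, 3.48, 2.52 and 4.30 in CCl4 mice 1 to 4. Metformin mice 1, 3 and 5 exceeded every CCl4 mouse, and CCl4 mouse 4 exceeded the other 3 metformin mice. The log2 fold change was 0.88 ± 0.48 (SE; 95% interval -0.18 to 1.95; adjusted p = 0.257 in limma). Pias3, which encodes a protein inhibitor of activated STAT3, was not well above background on any of the 10 arrays, so no fold change is given for it.

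Cish, another gene of the same inhibitor family, was called higher and Socs2 was not. Cish, an inhibitor best known for feedback on cytokine receptors that use STAT5, was at 2.63, 4.37, 4.14, 2.0, 3.15 and 2.68 in metformin mice 1 to 6, against -0.51, -1.64, -1.13 and 2.68 in CCl4 mice 1 to 4. Only CCl4 mouse 4 reached the metformin range. Cish was higher by 3.31 ± 0.80 (log2, SE; adjusted p = 0.0144 in limma) and by 2.81 to 4.26 with a mouse left out, 4.26 being without CCl4 mouse 4. The call was not made when a term for slide row was added (3.65, adjusted p = 0.0548 in limma) or on slide row 1 alone (3.65, adjusted p = 0.120 in limma). Socs2, also best known as a target of STAT5, was at 2.82, 3.02, 2.74, 1.47, 2.34 and 0.84 in metformin mice, against -0.17, -0.47, 1.64 and 3.34 in CCl4 mice, and did not pass (1.12 ± 0.73, SE; adjusted p = 0.363 in limma). The difference of Socs2 was 1.87 without CCl4 mouse 4 (adjusted p = 0.0568 in limma). Removing CCl4 mouse 1 or 2 instead gave 0.70 and 0.60 (adjusted p = 0.668 and 0.703 in limma). CCl4 mouse 4 was the highest of its group for Socs1, Socs2, Socs3 and Cish. Metformin mice 2 and 3 were the highest of theirs for Socs1 and Cish.

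In those metformin mice the acute phase genes shown next were low beside the other metformin mice. These genes were picked after their values were seen. Saa1, which encodes serum amyloid A, a STAT3 target, was at 8.16, 4.74, 4.52, 9.90, 7.33 and 9.35 in metformin mice 1 to 6, against 6.53, 6.99, 5.89 and 5.64 in CCl4 mice 1 to 4. Lcn2, which encodes the iron-carrier binding protein lipocalin 2, was at 4.82, 0.80, 1.02, 4.34, 3.55 and 4.61 in metformin mice, against 3.38, 1.93, 2.55 and 2.03 in CCl4 mice. In both genes metformin mice 2 and 3 were below every CCl4 mouse and the other 4 metformin mice were above every one. Fgl1, a fibrinogen-like hepatocyte protein gene, was at 8.92, 6.03, 6.46, 8.66, 8.36 and 8.84 in metformin mice, against 6.42, 6.31, 5.85 and 5.92 in CCl4 mice. Here too mice 2 and 3 were the low ones of the metformin group. Unlike in Saa1 and Lcn2, mouse 2 lay within the CCl4 range and mouse 3 just above it. None of the 3 passed in limma (adjusted p = 0.594 for Saa1, 0.661 for Lcn2 and 0.0623 for Fgl1), though Fgl1 passed in 6 of 21 refits, among them when metformin mouse 2 was left out (2.13, adjusted p = 0.0124 in limma) or mouse 3 (2.04, adjusted p = 0.0288 in limma). Metformin mice 2 and 3 were the lowest of their group for Stat3, Saa1, Lcn2 and Fgl1 and the highest for Socs1. Other STAT3 targets, also looked at after their values were seen, did not all follow this. Mice 2 and 3 were the lowest of the metformin group for Lrg1 (6.89 and 6.98) and Orm1 (6.02 and 5.40) too. By the brightest probe the same held for Saa2, Saa3, Orm2, Orm3, Lbp, Serpina3n, Hpx, Itih4, Fga and Fgb. For Hp and Fgg the lowest were metformin mice 2 and 1, and for Myc mice 2 and 3 were the highest of the group. Hamp was lowest in metformin mouse 4 (7.58) and Cebpd in metformin mouse 6 (2.57). The targets with and without the pattern were not counted.

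**Figure D3:**
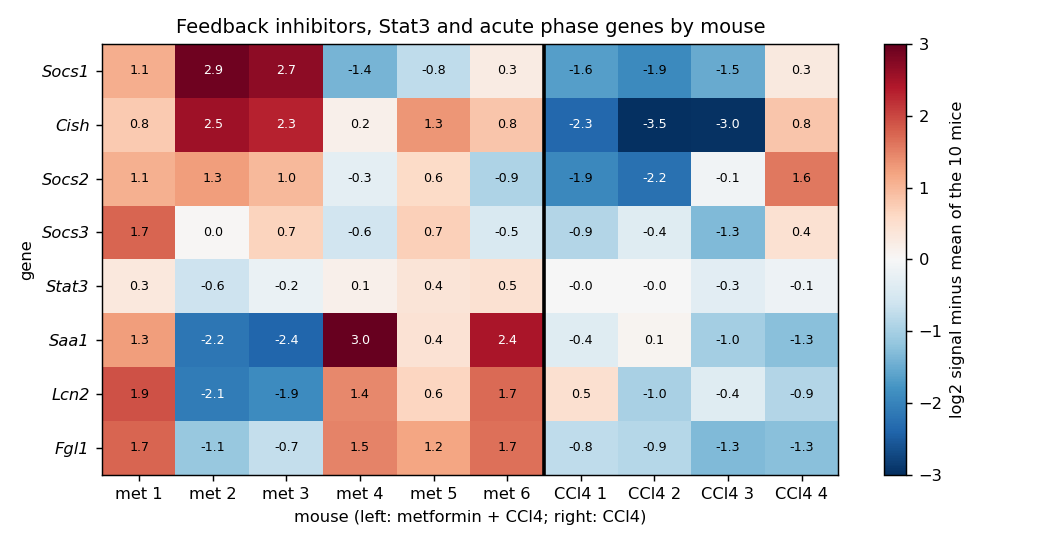
Log2 signal of 8 genes (y axis) in each mouse (x axis), metformin plus CCl4 left of CCl4, as the difference from the gene's mean over the 10 mice; red is above and blue below. Metformin mice 2 and 3 are high for Socs1 (2.9 and 2.7) and low for Saa1 (-2.2 and -2.4) and Lcn2 (-2.1 and -1.9).

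The remaining genes of the pathway were taken in 5 lists. Of the 79 genes 10 were called higher, 9 lower and 60 not called, and the median log2 fold change was 0.0046. Of all named genes 15.5% were called higher and 10.9% lower. Of those well above background, as 72 of the 79 genes were, 22% were called higher and 15.3% lower. The counts of each list below are to be read beside these shares. On slide row 1 alone the calls were those of Ctf1, Stat2 and Mcl1 (higher) and Fga and Cebpb (lower), and after scaling to spike-ins Cish was the 1 gene of the 79 called higher. Of the 11 ligand genes 1 was called higher and 1 lower, with a median of -0.0049. Ctf1, which encodes cardiotrophin 1, was at 1.48, 1.51, 1.37, 1.15, 1.11 and 1.21 in metformin mice, against 0.77, 0.75, 0.74 and 0.99 in CCl4 mice (0.50 ± 0.12, SE; adjusted p = 0.0141 in limma), but its sign turned to -0.052 after scaling to spike-ins. Clcf1, which encodes cardiotrophin-like cytokine, was at -3.47, -2.95, -4.11, -2.96, -2.99 and -3.11 in metformin mice, against -1.75, -1.95, -1.06 and -2.38 in CCl4 mice (-1.48 ± 0.29, SE; adjusted p = 0.00538 in limma). The groups of both genes did not overlap.

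Il6 itself was near the detection limit. It was well above background on 2 of 6 metformin and 1 of 4 CCl4 arrays, with a log2 fold change of 0.021 ± 0.43 (SE; adjusted p = 0.984 in limma). Il31, Lif and Osm, which encode interleukin 31, LIF and oncostatin M, were not well above background on any array. Il11, which encodes interleukin 11, was well above background on 3 of 6 metformin and all 4 CCl4 arrays and differed by -0.40 ± 0.36. Il27 and Ebi3, whose products form interleukin 27, differed by -0.19 ± 0.23 and 0.0093 ± 0.21. Cntf, the gene of ciliary neurotrophic factor, differed by 0.065 ± 0.17 (all SE). None of these 4 passed in limma (lowest adjusted p = 0.543).

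Among 6 other receptors and receptor-shedding proteases 1 was called higher and none lower, with a median log2 fold change of 0.32. The call was Adam10, a protease that can shed the IL-6 receptor, at 0.43 ± 0.12 (SE; adjusted p = 0.0232 in limma), with groups that did not overlap; its sign turned to -0.12 after scaling to spike-ins, and it was not called if CCl4 mouse 1, 2 or 3 was removed (adjusted p = 0.0756, 0.0581 and 0.0653 in limma). Il11ra1, the interleukin 11 receptor, differed by 0.26 ± 0.12 (SE; adjusted p = 0.172 in limma).

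Of the 8 other JAK and STAT genes 3 were called higher and none lower, with a median of 0.22. Stat2, which carries type I interferon signals, was at 3.53, 3.33, 3.52, 3.61, 3.18 and 3.44 in metformin mice, against 2.73, 2.63, 2.75 and 2.44 in CCl4 mice. The groups lay well apart, at 0.80 ± 0.12 (log2, SE; adjusted p = 0.00118 in limma); after scaling to spike-ins it was 0.25 and not called (adjusted p = 0.269 in limma). Stat5a and Stat5b, which carry growth hormone and prolactin signals, were higher by 0.54 ± 0.14 and 0.50 ± 0.14 (SE; adjusted p = 0.0190 and 0.0286 in limma), and both came to about 0 (-0.0090 and -0.050) after scaling to spike-ins. A second Stat5b probe differed by 0.064 (adjusted p = 0.823 in limma). By probes other than the brightest, looked at after their values were seen, Jak3 was lower (-0.47, adjusted p = 0.0234 in limma over all probes), and Stat6 was lower by 1 (-0.71, adjusted p = 0.0111) and higher by another (0.51, adjusted p = 0.0292), while their brightest probes were not called. Removing CCl4 mouse 1 or 2 ended the Stat5a call (adjusted p = 0.0615 and 0.0648 in limma). Stat5b lost its call without any of metformin mice 4, 5 and 6 and CCl4 mice 1, 2 and 4 (adjusted p up to 0.0863 in limma). Tyk2, the remaining kinase that gp130 can use, differed by 0.0038 ± 0.16 (SE; adjusted p = 0.993 in limma).

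Of 16 other negative regulators 3 were called higher, 2 lower and 11 not called, with a median of 0.066. Besides Cish the higher ones were Ptpn11, which encodes the phosphatase SHP2 that docks on gp130 (0.43 ± 0.11, SE; adjusted p = 0.0210 in limma; -0.12 after scaling to spike-ins, and adjusted p = 0.0608 without CCl4 mouse 4), and Socs5 (0.94 ± 0.23, SE; adjusted p = 0.0163 in limma; adjusted p = 0.0529 without CCl4 mouse 2), which was named after its value was seen. The lower ones were Socs6, an inhibitor known from insulin and growth factor receptor signalling, at -0.98 ± 0.14 (SE; adjusted p = 0.00110 in limma), and Ptpn1, the phosphatase PTP1B that acts on JAK2, at -0.53 ± 0.098 (SE; adjusted p = 0.00392 in limma). Neither overlapped between groups, and a second probe was lower for each, at -1.14 for Socs6 and -0.71 for Ptpn1. Pias1 and Sh2b3 were not called by their brightest probes, but another probe of Pias1 was lower (-0.79, adjusted p = 8.07e-04 in limma over all probes) and another of Sh2b3 higher (0.70, adjusted p = 0.00314), both without overlap and both looked at after their values were seen. In the authors' deposited table these probes of Pias1 and Sh2b3 differed by -0.81 and 0.65.

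**Figure D4:**
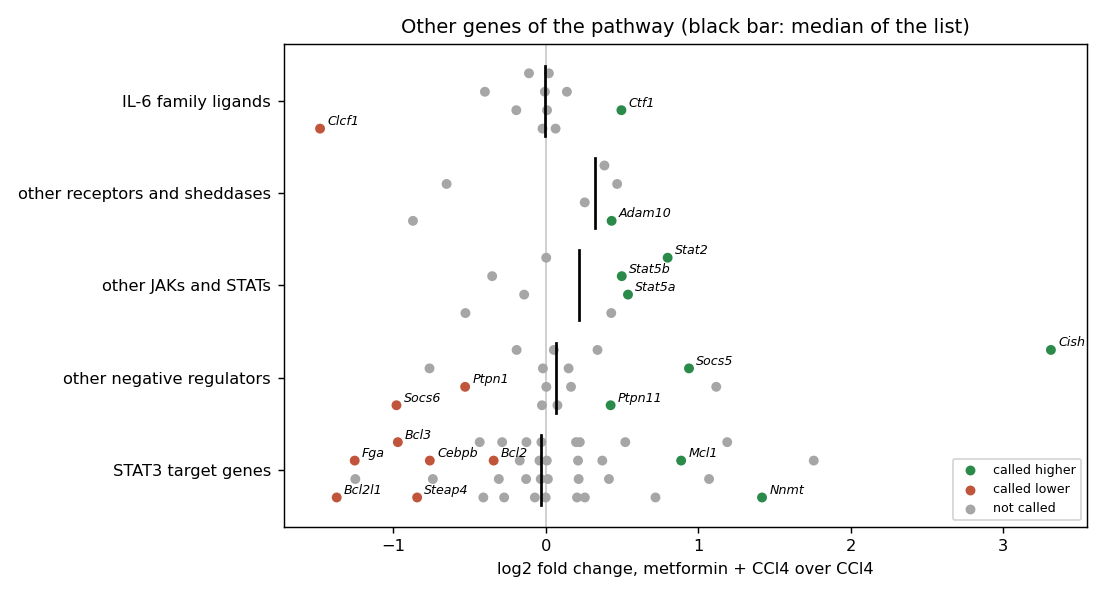
Log2 fold change, metformin plus CCl4 over CCl4 (x axis), of each gene in the 5 lists of other pathway genes (y axis; vertical position within a list has no meaning). Green points were called higher, red lower and grey not called at adjusted p below 0.05 in limma, and the black bar is the list's median; Cish lies farthest to the right at 3.31 and the medians of all 5 lists lie between -0.030 and 0.32.

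The 38 genes known as STAT3 targets were called in both directions: 2 were called higher, 6 lower and 30 not called, with a median of -0.030. Mcl1, a survival gene of the BCL2 family, was higher by 0.89 ± 0.12 (SE; adjusted p = 6.39e-04 in limma), while a second probe differed by -0.044, and it was not called after scaling to spike-ins (0.34, adjusted p = 0.200 in limma). Bcl2l1, which encodes the survival protein BCL-XL, was at a log2 fold change of -1.37 ± 0.31 (SE; adjusted p = 0.0111 in limma), and its second probe was at -2.21. Birc5, not called by its brightest probe, was lower by another (-0.88, adjusted p = 0.0118 in limma over all probes), looked at after its value was seen. Bcl3, which encodes a nuclear partner of NF-kB, was at -0.97 ± 0.19 (SE; adjusted p = 0.00535 in limma). Fga, the fibrinogen alpha chain gene, was at -1.25 ± 0.21 (SE; adjusted p = 0.00213 in limma), while its second probe differed by 0.29, the mean of both by -0.48 (adjusted p = 0.158 in limma), and the other fibrinogen chain genes, Fgb and Fgg, looked at after their values were seen, by -0.028 and 0.21 without passing. The other calls, Nnmt (higher) and Steap4, Cebpb and Bcl2 (lower), were named after their values were seen; their groups overlapped and each was lost without at least 1 mouse.

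Markers of other cell types were called lower in several lists, to be read beside the 10.9% of all named genes and 15.3% of those well above background that were called lower. Of 13 stellate cell and myofibroblast markers 7 were called lower and 0 higher, and their summed signal, in multiples of the array's 75th percentile, ran from 80.8 to 137 in metformin mice and from 128 to 182 in CCl4 mice. Of 12 endothelial markers 5 were lower and 0 higher (57.3 to 94.6 with metformin, 82.2 to 97.4 with CCl4 alone), of 14 macrophage markers 5 lower and 0 higher (106.8 to 194.7 with metformin, 149.5 to 187.7 with CCl4 alone), and of 10 neutrophil markers 5 lower and 1 higher (145 to 181 with metformin, 121 to 183 with CCl4 alone). Bile duct markers had 3 lower and 1 higher of 8 (2.40 to 10.9 with metformin, 6.82 to 13.6 with CCl4 alone), red blood cell markers 3 lower and 0 higher of 6 (122 to 207 with metformin, 258 to 413 with CCl4 alone), and hepatocyte markers 2 lower and 0 higher of 12 (9443 to 13040 with metformin, 10570 to 13330 with CCl4 alone). Of 10 T and NK cell and 8 B and plasma cell markers measured, 1 was lower in each. The summed T and NK cell signal was 26.3 to 49.1 with metformin and 32.9 to 45.3 with CCl4 alone, and that of B and plasma cells 3.33 to 5.84 with metformin and 4.45 to 5.48 with CCl4 alone. Markers not well above background on any array included Epb42 of red cells, Ncr1 of NK cells and Blk of B cells. The hepatocyte, T and NK cell and B and plasma cell counts lie near those shares. The part of the other lists in the lower Il6st and Lifr values and in the spread of Socs1 and Socs3 was not tested.

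The sign of the small differences, those of Jak1, Jak2 and Stat3, depended on the processing. That of Jak2 turned only after scaling to spike-ins, and that of Stat3 there and under other settings. Scaled to spike-in transcripts, the median log2 fold change of all features was -0.52 in place of 0.030. Then 5 of the 10 genes were called lower: Il6st (-1.0), Lifr (-1.15), Osmr (-0.84), Jak1 (-0.55) and Jak2 (-0.45). Of the 21613 named genes 10407 were called lower under that scaling and 578 higher. The spike-ins averaged 12.13 to 12.45 (log2) on the metformin arrays and 11.53 to 12.17 on the CCl4 arrays. Each group had its own slide and scan, so whether slide or metformin set this shift cannot be told apart. Relative to the median of -0.52, Jak1 and Jak2 differed little from the typical feature, whereas Il6st and Lifr stayed below it. Stat3 came to -0.35 under that scaling and Socs1, Socs3 and Il6ra to 1.43, 0.34 and 0.36, none of them called.

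**Figure D5:**
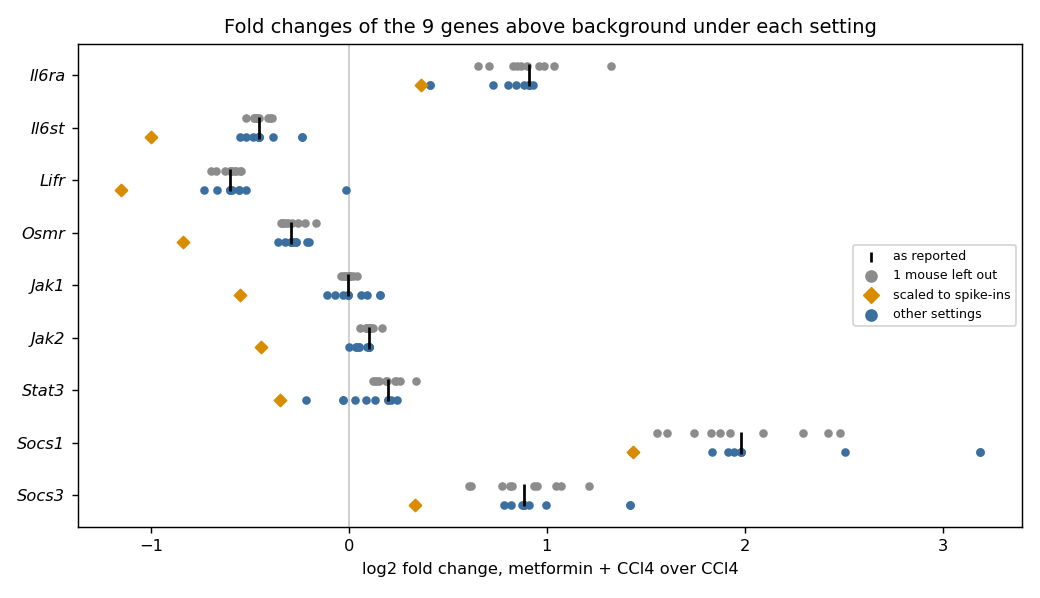
Log2 fold change, metformin plus CCl4 over CCl4 (x axis), of each of the 9 genes above background (y axis) as reported (black bar), with 1 mouse left out (grey), scaled to spike-ins (orange diamond) and under the other settings (blue). Il6st, Lifr and Osmr stay below 0 and Il6ra, Socs1 and Socs3 above it throughout; the blue Lifr point near 0, at -0.012, is the mean of its 3 probes.

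Likeness to other genes was measured for the called genes as the root mean square difference between profiles over the 10 arrays, each centred on its own mean. Over 21597 named genes, those most like Lifr were Vangl1 (0.119) and Psmd5 (0.128), and those most like Il6st were Ryk (0.0815) and Iqgap2 (0.0896).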

How the data were processed

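RNA of 10 livers, 1 Agilent 1-colour array each, was analysed; RNA with an integrity number above 8 was labelled with Cy3, per the labels' protocols. Spot intensities were deposited as made by Agilent Feature Extraction 10.7.3.1, per the file headers, with a grid of build mm9; the processed intensity is background-subtracted and spatially detrended, and not normalized between arrays. The deposited table of 4595 probes holds log2, quantile-normalized values of probes that passed the authors' FDR of 0.01 and fold change of 1.5, as its opening line states. Groups came from sample titles.

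Here flagged spots (135 to 179 per array) were left out, log2 processed intensities were scaled to the 75th percentile of each array, spots averaged and probes named through RefSeq accessions (GRCm38.p6; 28664 probes named, 27017 not). A gene is its brightest probe. Dim probes were kept, and a filter on them was 1 of the alternatives, with other background correction, scaling, probe choice, fit options, slide row, mouse number as a block and each mouse left out; 9 of the 10 genes were well above background on all 10 arrays. limma 3.58.1 in R 4.3.3 (lmFit, eBayes, two-sided) was tested on simulated data; figures used matplotlib 3.10.9. Only 10 arrays limit the precision. The named pathway genes were all ligands, called genes whose groups do not overlap (at most 6 per list) and Socs2, Cish, Tyk2, Stat5b, Ptpn11 and Il11ra1; some genes under this rule are not reported here. The genes and lists were chosen with earlier results of these data known, so nothing here is independent support for them.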

Additional observations from a re-analysis of the deposited data

Results flagged for a closer look

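Of 20 groups checked (10 genes in 2 groups), 2 held a mouse far from the others of its group, at a rate where chance gives about 1 in 20. Osmr in CCl4 mouse 3 was at 0.77, with the nearest CCl4 mouse at 0.33. Pias3 in CCl4 mouse 4 was at -5.01, with the nearest at -6.36, and this gene was not well above background on any array.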

How the results depend on the processing

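The counts of called genes and the fold changes of the 9 genes above background and of the named pathway genes were recomputed under 11 other settings and with each mouse left out; marker lists, probes other than the brightest, likeness and overlap were not. The number of the 10 genes called higher was 0, with 1 after normexp and 0 to 1 with a mouse left out (1 without CCl4 mouse 1, Il6ra). The number called lower was 2, with 1 after median scaling, 1 with the mean of a gene's probes, 5 after spike-in scaling, 0 with slide row as a covariate or slide row 1 alone, and 1 to 2 with a mouse left out. Of the 79 other pathway genes 10 were called higher and 9 lower, against 1 and 33 after spike-in scaling, 4 and 5 with slide row as a covariate, 3 and 2 on slide row 1 alone, and 5 to 13 and 6 to 8 with a mouse left out (5 higher without CCl4 mouse 2). Both slide row fits take the difference from metformin mice 1 and 2. Spike-in scaling and median scaling moved the share of called named genes that were higher to 5.26% and 50%, against 58.8%, and quantile normalization to 50.8%. After spike-in scaling 578 of all 21613 named genes were called higher and 10407 lower, against 3355 and 2354 as reported.

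Signs reversed for Jak1 (0.090 after normexp, 0.16 in both slide row fits, 0.060 with the replicate block, and from -0.042 to 0.039 with a mouse left out), Jak2 (-0.45 after spike-in scaling) and Stat3 (-0.35 after spike-in scaling, -0.22 with the mean of its probes, -0.028 in both slide row fits). Beyond spike-in scaling, where Jak2 was called lower, none of these was called. The causes were not tested.

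The mouse numbers do not pair the mice: deviations of same-numbered mice correlated at -0.071, -0.13, 0.082 and -0.0083. With the mouse number as a replicate block, 0 of the 10 genes were called higher and 0 lower, and 3 and 3 of the pathway genes. Signal over background limits Pias3, Il6, Il31, Lif and Osm.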
